A study of Mus musculus with 6 samples.

Results

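Plasma cells are the antibody-secreting end stage of the B cell lineage. Their formation is driven by a small set of transcription factors that shut down the B cell programme, and it goes with a large expansion of the endoplasmic reticulum (ER), the compartment in which immunoglobulin chains are made, folded and assembled. The ER stress sensor IRE1 splices *Xbp1* mRNA, and the resulting XBP1 protein switches on chaperone, translocation and degradation genes of the secretory pathway. In tumors, plasma cells lie among other infiltrating leukocytes, and part of the secretory machinery they use is shared with every secreting cell, cancer cells included.

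The 10 genes described here were chosen by name, with earlier results of these data known. They encode 4 transcription factors (*Prdm1*, *Xbp1*, *Irf4*, *Pou2af1*), 2 surface proteins (*Sdc1*, *Tnfrsf17*) and 4 ER proteins (*Mzb1*, *Derl3*, *Fkbp11*, *Creld2*) of plasma cells. All 10 were among the 20076 genes in the table of normalized expression, and all 10 were tested. They were read in primary orthotopic tumors from C57BL/6 hosts, 3 wild-type (WT) and 3 with *Tgm2* knocked out, 6 to 10 weeks old when used. *Tgm2* encodes transglutaminase 2, an enzyme that crosslinks proteins. Both groups received bilateral intrabursal injections of the same cancer cells, the ID8 Trp53-/- Brca1-/- line of mouse ovarian origin, edited to lack the tumor suppressors p53 and BRCA1, and tumors were taken 6 weeks later for polyA RNA sequencing. The knockout is in the host throughout the body and not in the injected cells, so host immune cells and stroma lacked the gene while cancer cells carried it. The labels give the cell type as cancer cells, yet the tumors were not sorted: the pan-leukocyte gene *Ptprc* lay between 1583 and 3173 normalized counts, beside 13131 to 20641 for *Wt1*, a gene of the ovarian surface lineage. The labels do not state that each tumor came from a separate mouse, and p-values measure only the spread between these samples.

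Values are normalized counts, that is, estimated reads per gene divided by a size factor for each tumor. The tumors summed to between 32316613 and 37717165, and 1 read was worth 0.944 to 1.08 normalized counts, so that very low values stand for a handful of reads. As a check on the genotype labels, *Tgm2* (chromosome 2, 158116402 to 158146436, minus strand, GRCm38) stood at 14978, 12155 and 13180 in WT tumors and at 5853, 6071 and 8157 in knockout tumors. The knockout tumors were all lower, with a log2 fold change of -1.02 (SE 0.22, adjusted p = 0.391 in limma), and RNA of the gene remained in each of them. The smallest p that an exact permutation test allows for groups of this size is 0.1.

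Promoter sequences are shown because *Derl3*, *Creld2* and *Pou2af1* hold motifs named after the pathway in which XBP1 acts. The ER stress response element (ERSE), a CCAAT and a CCACG with 9 bases of any kind between them, is known as a binding site for ATF6 and XBP1 together with the CCAAT factor NF-Y, and TGACGTGG is the core of the unfolded protein response element bound by XBP1 and ATF6. Stretches of 80 bases come from RefSeq promoters on GRCm38.p6, from 250 bases before to 50 after each start site, and run 5′ to 3′ on the strand of the gene, which is the plus strand for all 3. Capitals mark the bases that the motif fixes. In *Derl3* (chr10:75893211-75893290) and *Creld2* (chr15:88819489-88819568) the ERSE reads on the opposite strand, so that CGTGG and ATTGG are its CCACG and CCAAT, and its first base lies 156 and 126 bases upstream of the start site. In *Pou2af1* (chr9:51213592-51213671) the core reads on the strand of the gene, 61 bases upstream.
Derl3: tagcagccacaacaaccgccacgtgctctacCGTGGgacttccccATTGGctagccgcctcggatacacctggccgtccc
Creld2: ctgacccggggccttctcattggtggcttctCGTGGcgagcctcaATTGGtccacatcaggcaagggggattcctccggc
Pou2af1: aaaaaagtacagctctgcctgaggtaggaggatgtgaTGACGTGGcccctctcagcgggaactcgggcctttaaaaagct

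Both strands were searched, and 9 of the 10 genes had a promoter in the RefSeq table, *Mzb1* being the other. An ERSE was held by 39 of 32851 promoters (0.119%) and by the promoters of 2 of the 9 genes. TGACGTGG was in 222 promoters (0.676%), and its reverse complement CCACGTCA gives the same matches. Each ERSE contains by construction a CCAAT, found in 37.4% of promoters, 42.4% of tested genes with a promoter and 6 of the 9 genes. The CCACG it also contains was in 32.8% of promoters, 47.3% of tested genes and 7 of the 9, while ACGT, which lies within TGACGTGG, was in 30.9% of promoters, 40.5% of tested genes and 4 of the 9. Per tested gene, the ERSE was in 0.165% and TGACGTGG in 0.973%. The octamer ATGCAAAT (1.74% of promoters, 1.72% of tested genes), the long PRDM1 site (0.0913% and 0.157%) and the composite site of IRF4 with its partner PU.1 (0.731% and 0.779%) were in none of the 9, and GTGAAAG, which the long PRDM1 site contains (4.24% and 4.31%), was in *Creld2* only among the 9. A match describes the letters of a window and is not evidence of binding.

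Most of the 10 genes were higher in *Tgm2* knockout tumors, with *Mzb1* and *Pou2af1* past the limits of the test and *Sdc1* and *Fkbp11* apart from the pattern. Past an adjusted p of 0.05 and a log2 fold change of 1 in limma were 2 of the 10 genes, where 0.102% of the 19667 tested genes were called higher (20 genes) and 0 lower (305 lower at an unadjusted p under 0.05 with the same fold limit). At an unadjusted p under 0.05, 6 of the 10 were higher (3.4% of all genes), 5 of them with a log2 fold change over 1 (2.5%), and none was lower (2.38%). The groups did not overlap for 8 of the 10 genes, all of them higher in the knockout tumors (5.18% of all genes), and for none in the other direction (5.33%). The median log2 fold change of the 10 was 1.60, beside -0.03 over all tested genes. Because the 10 were chosen with earlier results of these data known, these counts are descriptive.

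**Figure D1:**
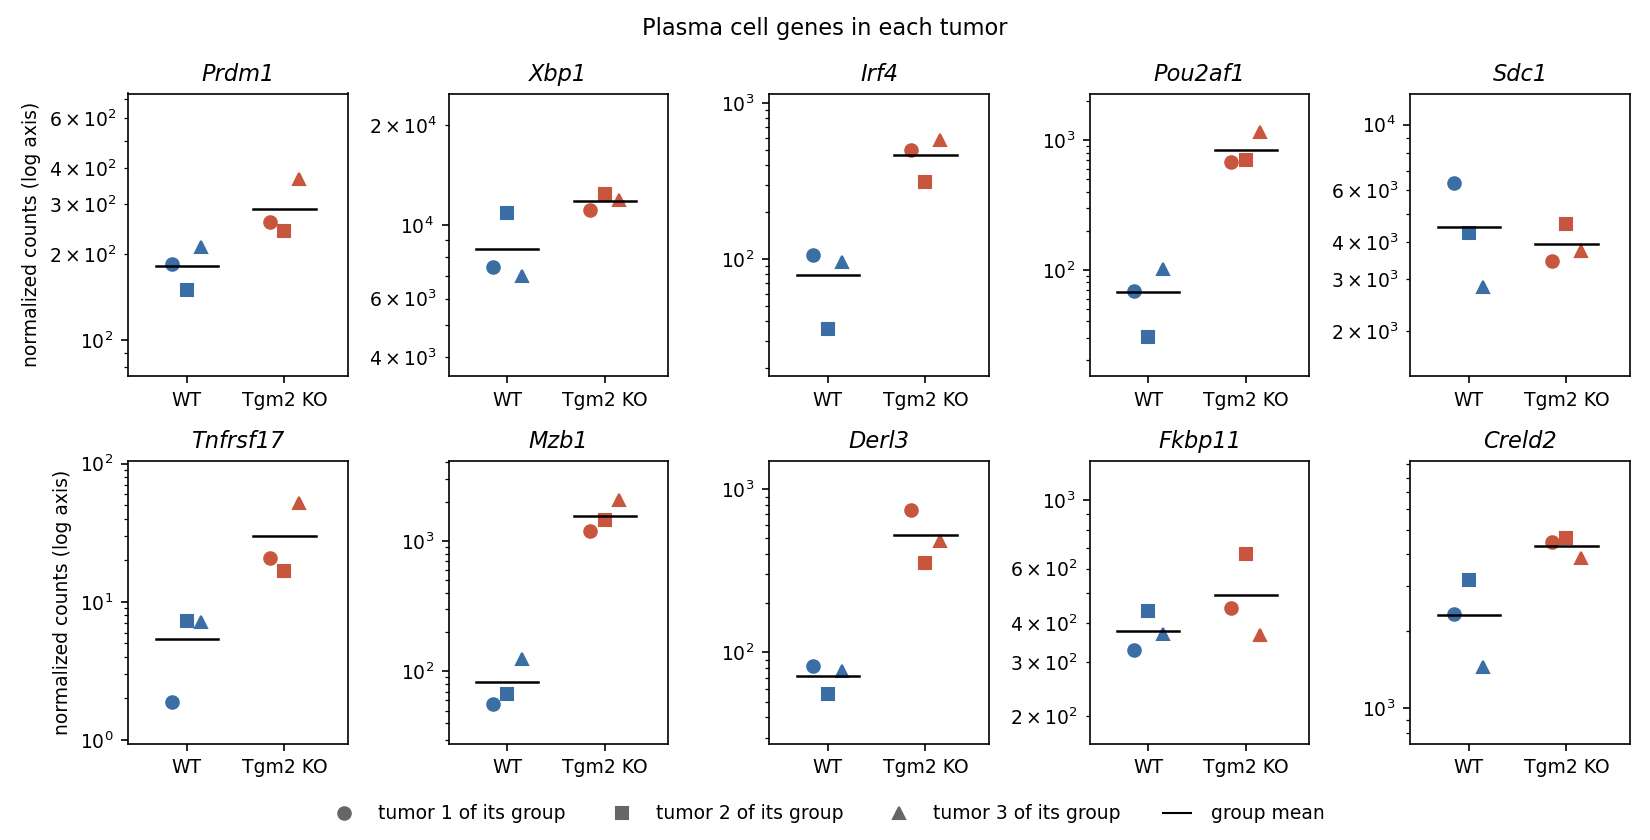
Normalized counts (log axis) of each of the 10 plasma cell genes in the 3 WT and 3 Tgm2 knockout tumors, with points for tumors and bars for group means. The groups are apart in 8 panels and overlap in those of Sdc1 and Fkbp11.

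*Pou2af1* had the largest change among the transcription factors. It encodes OCA-B, a coactivator of octamer-binding factors in B lineage cells. It measured 68.2, 30.2 and 102 normalized counts in WT tumors and 681, 708 and 1149 in knockout tumors. The lowest knockout tumor was thus several times the highest WT tumor. Its log2 fold change was 3.76 (SE 0.49, 95% interval 2.65 to 4.87, adjusted p = 0.0439 in limma), and the gene (chromosome 9, 51213708 to 51240080, plus strand) rose past the limits. The call lay near the threshold: the adjusted p in limma was 0.138 without WT tumor 1, 0.0955 without WT tumor 2, and 0.0879, 0.222 and 0.194 without knockout tumors 1, 2 and 3, while the log2 fold change stayed between 3.28 and 4.60 in all alternatives run.

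*Irf4*, a factor needed both for activation of B cells and for their passage to plasma cells, lay at 106, 35.6 and 95.6 in WT tumors and at 499, 310 and 575 in knockout tumors. The groups did not overlap, and WT tumor 2 was the lowest of all, as it was for *Pou2af1*. The log2 fold change of 2.63 (SE 0.50, 95% interval 1.49 to 3.77) did not pass after adjustment in limma (adjusted p = 0.264). *Irf4* lies on chromosome 13 from 30749226 to 30766976 on the plus strand. T cells and macrophages can also make IRF4, so the gene does not by itself mark plasma cells.

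*Prdm1* encodes BLIMP1, the repressor that silences the B cell programme. Its values were 184, 149 and 213 in WT tumors and 258, 240 and 367 in knockout tumors. The knockout tumors were all higher, and the difference did not pass the limits: the log2 fold change was 0.65 (SE 0.33, 95% interval -0.11 to 1.41, adjusted p = 0.887 in limma). T cells, macrophages and some epithelia also express *Prdm1* (chromosome 10, 44437177 to 44528501, minus strand).

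*Xbp1*, on chromosome 11 from 5520659 to 5525893 on the plus strand, was the most abundant of the 10 genes. It stood at 7475, 10847 and 7020 in WT tumors and at 11108, 12419 and 11858 in knockout tumors. WT tumor 2 came close to the lowest knockout tumor, and the log2 fold change was 0.51 (SE 0.23, 95% interval -0.02 to 1.04, adjusted p = 0.880 in limma). The value sums all transcripts of the gene, so spliced and unspliced *Xbp1* cannot be told apart. Secretory epithelial cells use *Xbp1* as well.

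Of the 2 surface protein genes, *Tnfrsf17* had groups that were apart and *Sdc1* had groups that overlapped. The difference between the 2 genes was not tested. *Tnfrsf17* encodes BCMA, the receptor through which the factors APRIL and BAFF keep plasma cells alive. It was the scarcest of the 10, at 1.88, 7.26 and 7.12 in WT tumors and 20.8, 16.7 and 52.2 in knockout tumors. All knockout tumors were higher, with knockout tumor 3 well above the other two, and the log2 fold change of 2.24 carried the widest error of the 10 (SE 0.77, 95% interval 0.48 to 4.01, adjusted p = 0.759 in limma). At this depth the WT values stand for only a few reads each. The gene lies on chromosome 16 from 11313812 to 11320074 on the plus strand.

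*Sdc1* encodes syndecan-1 (CD138), the proteoglycan by which plasma cells are usually sorted, and which epithelial cells also carry. It measured 6375, 4298 and 2824 in WT tumors and 3462, 4611 and 3737 in knockout tumors. The knockout tumors lay inside the WT range, and the log2 fold change was -0.13 (SE 0.30, 95% interval -0.81 to 0.56, adjusted p = 0.960 in limma). Without WT tumor 1 the sign turned, to 0.17. *Sdc1* (chromosome 12, 8771323 to 8793715, plus strand) was the only one of the 10 with a negative value. Of 10 epithelial and tumor cell markers, 0 passed the limits in limma and 0 had an unadjusted p under 0.05. Their median log2 fold change was -0.32, with 3 positive and 7 negative. *Krt8* and *Krt19* were lower in the knockout tumors without overlap, as were 5.33% of all genes. The 10 markers summed to 71886, 84205 and 83982 in WT tumors and to 65881, 61467 and 70337 in knockout tumors. These sums hide uneven genes. *Epcam* lay at 90.5, 959 and 8047 in WT tumors and at 1307, 1063 and 201 in knockout tumors. *Cdh1* lay at 224, 920 and 6588 against 1876, 1786 and 348. *Wt1*, the most abundant of these markers, had a log2 fold change of 0.11. Their part in the *Sdc1* values was not tested.

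Of the ER genes, *Mzb1* had the largest fold change of the 10. It encodes an ER protein of B lineage cells that helps the assembly and secretion of IgM. WT tumors held 55.9, 67.7 and 126 normalized counts, and knockout tumors 1195, 1437 and 2050. Mean levels were 83.1 ± 37.3 and 1561 ± 441 (SD, n = 3 each), an 18.8-fold ratio. The log2 fold change was 4.27 (SE 0.38, 95% interval 3.40 to 5.13, adjusted p = 0.00763 in limma), the gene ranked 6 of 19667 by p, and it rose past the limits. Leaving out WT tumor 2 gave a log2 fold change of 4.16 with an adjusted p of 0.0692 in limma, and the call was also lost without the variance trend (adjusted p = 0.063) and with white adipocyte markers as a covariate (adjusted p = 0.379). Its annotated exons overlap those of a longer gene model, SPATA24, on the same strand, and reads in the overlap could be split between them.

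*Derl3* encodes derlin-3, a channel component for moving misfolded proteins out of the ER. It lay at 82.3, 55.3 and 77.2 in WT tumors and at 742, 352 and 484 in knockout tumors, where knockout tumor 1 was the highest, unlike for any other of the 10. The log2 fold change was 2.81 (SE 0.40, 95% interval 1.91 to 3.72), just outside the limit with an adjusted p of 0.0713 in limma. Of its broadly expressed relatives, *Derl1* had a log2 fold change of 0.13 (SE 0.28) and *Derl2* of -0.01 (SE 0.28), both with groups that overlapped. *Derl3* lies on chromosome 10 from 75893413 to 75895941 on the plus strand.

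*Creld2*, a disulfide isomerase-like protein induced by ER stress, stood at 2341, 3173 and 1452 in WT tumors and 4472, 4642 and 3869 in knockout tumors. The knockout tumors were close together and all above the WT tumors, which varied more. The log2 fold change was 0.97 (SE 0.28, 95% interval 0.31 to 1.62, adjusted p = 0.663 in limma). The gene lies on chromosome 15 from 88819646 to 88826683 on the plus strand.

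*Fkbp11*, a prolyl isomerase of secretory cells on chromosome 15 (98724366 to 98728198, minus strand), lay at 327, 439 and 368 in WT tumors and at 448, 667 and 367 in knockout tumors. Knockout tumor 3 sat among the WT tumors although it was the highest tumor for 5 of the other genes. The log2 fold change was 0.35 (SE 0.30, 95% interval -0.34 to 1.04, adjusted p = 0.901 in limma). In bulk tumors, more cells of a type and more RNA per cell cannot be told apart for any of the 10.

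**Figure D2:**
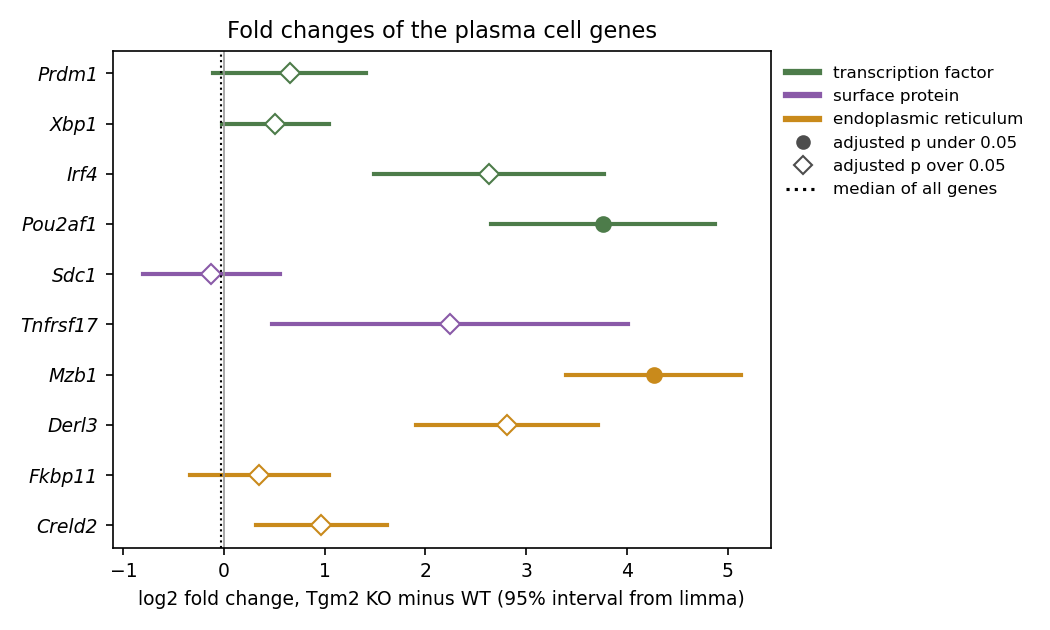
Log2 fold change of each gene, Tgm2 knockout minus WT, with its 95% interval from limma, coloured by role, with filled points for an adjusted p under 0.05. Values run from -0.13 for Sdc1 to 4.27 for Mzb1, and the dotted line marks the median of all genes at -0.03.

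The larger ratios were found among the genes with a low starting level, *Prdm1* excepted. Divided by the length of the longest coding transcript, mean WT levels ran from 3968 normalized counts per kb for *Xbp1* through 1700 for *Creld2*, 1425 for *Sdc1*, 515 for *Fkbp11*, 91.9 for *Mzb1*, 54.2 for *Derl3*, 34.5 for *Prdm1*, 26.2 for *Pou2af1* and 16.6 for *Irf4* to 6.65 for *Tnfrsf17*. The 4 genes with the highest WT level had ratios of knockout to WT means between 0.875 and 1.86, whereas the other 6 had ratios between 1.58 and 18.8. Of the neighbours in this order, the ranges of mean ± SD overlapped between *Creld2* and *Sdc1*, *Mzb1* and *Derl3*, *Prdm1* and *Pou2af1*, *Pou2af1* and *Irf4*, and *Irf4* and *Tnfrsf17*. In knockout tumors *Mzb1* reached 1726 per kb, between *Creld2* at 3168 and *Sdc1* at 1247, and its range overlapped that of *Sdc1*.

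As absolute differences per kb, the order changed. The knockout minus WT difference of means was 1634 normalized counts per kb for *Mzb1*, 1573 for *Xbp1* and 1469 for *Creld2*, against 344 for *Derl3* and 306 for *Pou2af1*. *Xbp1* and *Creld2*, with ratios of 1.40 and 1.86, stood next to *Mzb1* in this order, although neither passed the limits. *Fkbp11* differed by 158, *Irf4* by 80.3, *Tnfrsf17* by 30.0, *Prdm1* by 20.2 and *Sdc1* by -178.

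**Figure D3:**
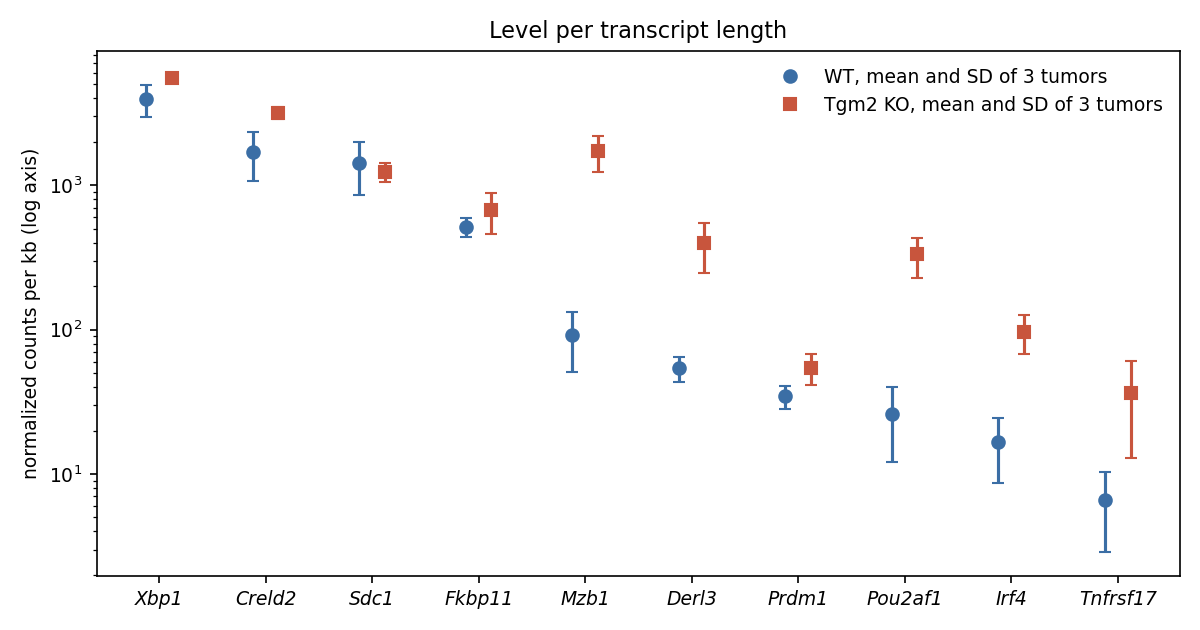
Mean level per kb of transcript (log axis) of the 10 genes in WT and Tgm2 knockout tumors, with SD over 3 tumors, ordered by WT level. The 4 genes on the left start at 515 per kb or more and have ratios of knockout to WT means between 0.875 and 1.86. Mzb1 moves from 91.9 to 1726.

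Within the knockout group no tumor led for all genes. Knockout tumor 3 was the highest for 5 of the 10, knockout tumor 2 for 4 and knockout tumor 1 for 1. The mean log2 value of the 10 genes was 7.92, 7.82 and 8.06 in WT tumors and 9.67, 9.61 and 9.94 in knockout tumors, so the tumors of a group differed little from each other on this summary. Outside the 10, of the 16727 genes with a mean of at least 10 normalized counts, the pattern over the 6 tumors closest to that mean was that of *Apol6*, with a root mean square difference of 0.18 on the log2 scale, followed by *Btnl1* (0.23), *Armc2* (0.26), *Gm29797* (0.27) and *Cyp4b1* (0.28).

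Antibody transcripts, the main product of plasma cells, had the highest median of the lists read. Of 12 immunoglobulin constant genes, 4 rose past the limits, 9 had an unadjusted p under 0.05 in the higher direction and 1 in the lower, 9 were apart and higher, and the median log2 fold change was 3.82. *Igha*, the constant region of IgA, stood at 4495, 5408 and 6483 in WT tumors and at 192147, 197269 and 373965 in knockout tumors. This was a log2 fold change of 5.49 (SE 0.36, adjusted p = 0.00124 in limma). *Igkc*, the kappa light chain, rose by 4.25 (SE 0.44, adjusted p = 0.0143), *Ighg2c* by 4.49 (SE 0.40, adjusted p = 0.00763) and *Ighg2b* by 4.87 (SE 0.46, adjusted p = 0.0104). All 4 lost their calls without WT tumor 2. The adjusted p in limma was then 0.0515 for *Igha*, 0.180 for *Igkc*, 0.0667 for *Ighg2c* and 0.0955 for *Ighg2b*. Without WT tumor 1 it was 0.116, 0.0582 and 0.0720 for the last 3, and without knockout tumor 2 it was 0.0547 for *Igkc*. *Ighm*, which is also made by B cells before they become plasma cells, had 1.89 (SE 0.46, adjusted p = 0.542 in limma). *Ighg3* had -1.92 (SE 0.81, adjusted p = 0.845 in limma), with 6155 normalized counts in WT tumor 3 against 488 to 1192 in the other WT tumors. Constant genes share similar sequence, so the split of reads between them is uncertain.

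*Jchain*, which links IgA and IgM into polymers, lay at 1461, 2231 and 2511 in WT tumors and at 42273, 62782 and 67245 in knockout tumors. It rose by 4.80 on the log2 scale (SE 0.29, adjusted p = 9.89e-04 in limma), and it kept its call with any 1 tumor left out but not with white adipocyte markers as a covariate (4.25, adjusted p = 0.301). It was the only gene past the limits among 20 other plasma cell genes, of which 8 had an unadjusted p under 0.05, all higher, and 11 had every knockout tumor above every WT tumor. Their median log2 fold change was 0.88. *Tent5c*, a poly(A) polymerase that stabilizes immunoglobulin mRNA, had 1.35 (SE 0.24, adjusted p = 0.211 in limma). *Txndc5*, an ER disulfide isomerase and the most abundant of the 20 after *Jchain*, had 0.41 (SE 0.24, adjusted p = 0.891 in limma).

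Ratios to *Mzb1* overlapped between the groups for antibody transcripts and *Derl3*, and not for *Irf4*. The ratios were chosen after the values were seen, so their p-values, from two-sided exact permutation tests on the log2 ratios of 8 such quantities with Benjamini-Hochberg adjustment over the 8, are descriptive. The 12 constant genes summed to 25069, 17470 and 35943 in WT tumors and to 458274, 505309 and 814552 in knockout tumors, which was 0.0720%, 0.0495% and 0.106% of all normalized counts against 1.42%, 1.41% and 2.16%. Divided by *Mzb1*, the sums were 448, 258 and 286 in WT tumors and 383, 352 and 397 in knockout tumors (exact p = 0.4, adjusted 0.4). The knockout tumors lay within the WT range, although both quantities differed by more than 10-fold between group means. *Jchain* per *Mzb1* also overlapped, at 26.1, 32.9 and 19.99 against 35.4, 43.7 and 32.8 (exact p = 0.2, adjusted 0.267). *Irf4* per *Mzb1* was 1.90, 0.525 and 0.761 in WT tumors and 0.417, 0.216 and 0.281 in knockout tumors, lower without overlap (exact p = 0.1, adjusted 0.2). *Derl3* per *Mzb1* was 1.47, 0.816 and 0.615 against 0.621, 0.245 and 0.236, with knockout tumor 1 just above WT tumor 3 (exact p = 0.2, adjusted 0.267). *Mzb1* per *Pou2af1* overlapped, at 0.821, 2.24 and 1.23 against 1.75, 2.03 and 1.78 (exact p = 0.4, adjusted 0.4). *Igha* made up 28.1%, 53.8% and 31.3% of the heavy chain constant counts in WT tumors and 65.3%, 64.8% and 73.3% in knockout tumors, with no overlap (exact p = 0.1, the smallest possible here, adjusted 0.2).

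**Figure D4:**
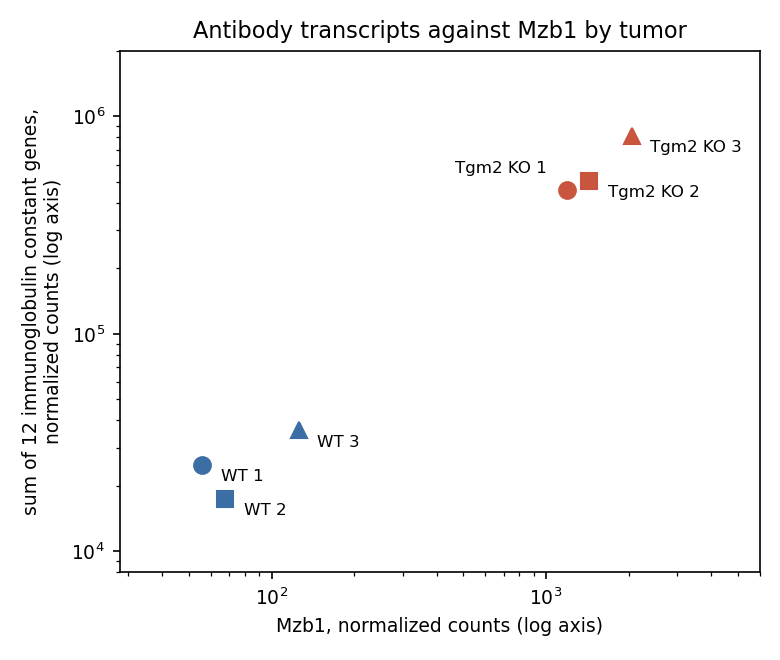
Sum of the 12 immunoglobulin constant genes against Mzb1 in each tumor, in normalized counts on log axes. The WT tumors lie at 55.9 to 126 normalized counts of Mzb1 and the knockout tumors at 1195 to 2050, and the sum per Mzb1 lies between 258 and 448 in all 6.

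The list of the B cell programme, most of which plasma cells switch off, held 1 gene past the limits. This was *Cd79a*, part of the B cell receptor and still present in plasma cells. Of the 17 genes, 5 had an unadjusted p under 0.05, all higher, and 6 were apart and higher, with a median log2 fold change of 0.61. *Cd79a* lay at 114, 91.6 and 74.1 in WT tumors and at 686, 593 and 1022 in knockout tumors, a log2 fold change of 3.01 (SE 0.34, adjusted p = 0.0264 in limma). Its adjusted p was 0.0638 to 0.161 with any 1 tumor left out. *Ms4a1*, which encodes CD20 and is lost in plasma cells, had 2.12 (SE 0.56, adjusted p = 0.591 in limma), at 14.1 to 32.9 against 82.0 to 144. *Ciita*, the activator of class II genes, had 1.17 (SE 0.32, adjusted p = 0.644), and *Id3*, the most abundant of the 17, had 0.27 (SE 0.27, adjusted p = 0.909). *Mzb1* per *Cd79a* was 0.489, 0.740 and 1.70 in WT tumors and 1.74, 2.42 and 2.01 in knockout tumors, with WT tumor 3 just below the lowest knockout tumor (exact permutation p = 0.1, adjusted 0.2 over the same 8 ratios).

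In the secretory pathway at large, ER chaperones and folding enzymes had the most positive values and the sensors of the unfolded protein response the least. Of 21 chaperones and folding enzymes, 0 passed the limits in limma, 8 had an unadjusted p under 0.05, all higher, 6 were apart and higher, and 18 had a positive log2 fold change, with a median of 0.55. *Hspa5* (BiP, the main ER chaperone) measured 32368, 51801 and 23533 in WT tumors and 51404, 66209 and 52595 in knockout tumors, so that WT tumor 2 overlapped the knockout tumors, and its log2 fold change was 0.73 (SE 0.37). *Calr* (calreticulin) had 0.55 (SE 0.37). *Dnajc3* and *Ero1b*, a co-chaperone of BiP and an oxidase for disulfide bonds, had 0.62 (SE 0.19, adjusted p = 0.695 in limma) and 0.72 (SE 0.23, adjusted p = 0.719 in limma), and their groups did not overlap. WT tumor 3 had the lowest summed level of this list, 174552 normalized counts against 283860 and 325109 in the other WT tumors and 307293 to 382244 in knockout tumors, and it was the lowest WT tumor for *Xbp1* and *Creld2* too.

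The medians of the other secretory lists were nearer that of all genes. None of the 13 sensors and factors of the unfolded protein response passed the limits in limma or an unadjusted p of 0.05, 1 was apart and higher, and their median was -0.03. *Atf4*, the factor translated when PERK is active, had -0.33 (SE 0.22), *Mbtps1*, the protease that cleaves ATF6, had 0.30 (SE 0.22), *Creb3l2* had 0.37 (SE 0.23) and *Atf6b* had 0.28 (SE 0.19). Of 20 genes of translocation and signal peptide processing, 0 passed either limit and 0 were apart, with a median of 0.10 and values from -0.54 for *Sec61g* to 0.45 for *Srp54a*. The abundant *Ssr3* and *Sec61a1* had 0.08 and 0.13. Of 13 genes of ER-associated degradation, 0 passed either limit and 1 was apart and higher, with a median of 0.17, and *Vcp*, *Herpud1* and *Sel1l* had 0.35, 0.43 and 0.48. Of 10 genes of oligosaccharyl transfer, 0 passed either limit, 3 were apart and higher (*Rpn1*, *Stt3b* and *Magt1*), and the median was 0.21, among them *Rpn1* (0.37), *Ddost* (-0.05), *Magt1* (0.34) and *Stt3a* (0.44). Of 18 genes of ER to Golgi transport, 0 passed either limit and 1 was apart and higher, with a median of 0.11, among them *Tmed2* (-0.09), *Surf4* (0.25), *Lman1* (0.39) and *Golgb1* (-0.34). In each of these 5 lists the limma test gave 0 genes at an unadjusted p under 0.05 in either direction.

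**Figure D5:**
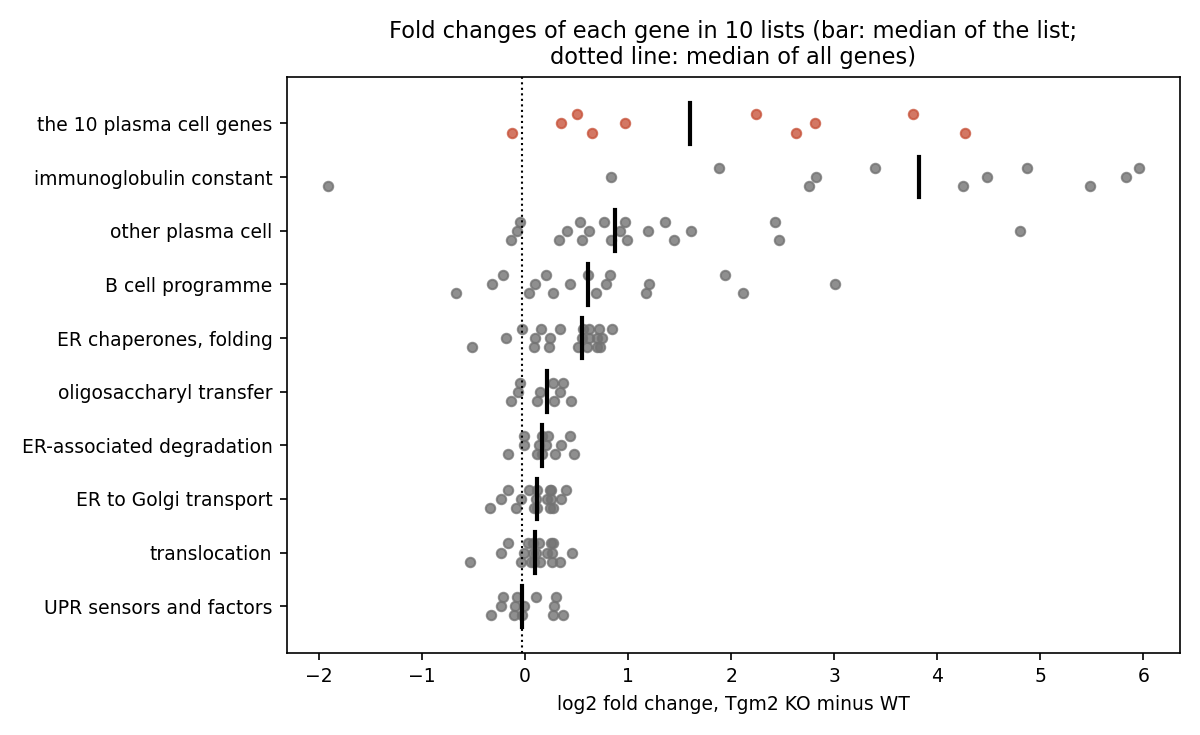
Log2 fold change of every gene in 10 lists, Tgm2 knockout minus WT, with a bar at the median of each list and a dotted line at the median of all genes. The immunoglobulin constant genes (median 3.82) and the 10 plasma cell genes (1.60) have the highest medians, while the 5 lists at the bottom lie between -0.54 and 0.48.

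The ERSE shown above in *Derl3* and *Creld2* was also looked for in all tested genes, after the values were seen. Of 13356 tested genes with a promoter, 22 held it. Of the 20 other than *Derl3* and *Creld2*, whose values had been seen, 4 had every knockout tumor above every WT tumor, as did 5.11% of all 13356, and the median log2 fold change of the 20 was 0.39. No test was made of this count. The genes apart and higher were *Derl3*, *Creld2*, *Hsp90b1* (log2 fold change 0.84, SE 0.35, adjusted p = 0.827 in limma), *Ero1b*, *Dnajc3* and *Hnrnpa3* (0.43, SE 0.22). Several of the 22, such as *Hspa5*, *Calr*, *Pdia6* (0.51) and *Canx* (0.34), are chaperones with values already counted above. Of 130 tested genes with TGACGTGG, the motif of the *Pou2af1* promoter, 5 (3.85%) were apart and higher and 8 (6.15%) apart and lower, with a median of 0.05.

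Other cell types were read beside the plasma cell genes. T cell markers (10 genes, 0 past the limits in limma, 2 with an unadjusted p under 0.05 and higher) were positive in 10 of 10 with a median log2 fold change of 0.84, 4 were apart and higher (*Cd3g*, *Cd4*, *Lck* and *Cd247*), and their sum was 2154, 1409 and 1288 in WT tumors and 2221, 2472 and 4016 in knockout tumors, with *Trac* the most abundant. General leukocyte genes (10 genes, 0 past the limits, 1 with an unadjusted p under 0.05, 1 apart and higher) had a median of 0.50, with *Laptm5* the most abundant and sums of 33117, 24777 and 18953 against 22124, 39938 and 42470. *Cd52*, the next most abundant, lay at 2593, 2308 and 1544 in WT tumors and at 3197, 5674 and 6507 in knockout tumors. Macrophage markers (10 genes, 0 past the limits, 2 with an unadjusted p under 0.05, 1 apart and higher) had a median of 0.45, sums of 49633, 34261 and 21961 against 25401, 70248 and 53681, and *C1qa* as the most abundant gene. Plasmacytoid dendritic cells, which resemble plasma cells in their ER, had a median of 0.50 over 8 markers (0 past the limits, 2 with an unadjusted p under 0.05, 2 apart and higher) and sums of 11760, 11101 and 6859 against 9418, 13685 and 11471, with *Bst2* the most abundant. Their defining gene *Siglech* lay at 53.6, 57.2 and 36.0 against 42.1, 48.9 and 80.7.

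White adipocyte markers had positive log2 fold changes in 16 of 16 genes. Of these, 1 rose past the limits (*Lep*, which encodes leptin, by 3.74, SE 0.47, adjusted p = 0.0393 in limma, and 0.0533 to 0.284 with any 1 tumor left out), 13 had an unadjusted p under 0.05, all higher, 8 had every knockout tumor above every WT tumor, and the median was 1.80. Their sum was 56481, 72813 and 45244 in WT tumors and 66948, 251801 and 149089 in knockout tumors, with *Lpl* the most abundant, and the defining gene *Adipoq* stood at 932, 2067 and 786 against 1691, 9593 and 5412. Knockout tumor 1 lay inside the WT range for the sum and for *Adipoq*, and above every WT tumor for those 8 genes, among them *Lep* (334 against at most 43.5) and *Plin1* (1107 against at most 512). With the mean log2 value of these markers as a covariate, the log2 fold change of *Mzb1* was 4.29 and that of *Pou2af1* 4.60. Neither passed (adjusted p = 0.379 for both in limma). *Xbp1* (0.07), *Creld2* (0.48), *Sdc1* (-0.46) and *Fkbp11*, which turned to -0.43, were lower than in the main fit. *Irf4* (4.10), *Derl3* (3.98), *Prdm1* (1.05) and *Tnfrsf17* (2.31) were higher than there. The covariate was itself higher in knockout tumors on average, so this fit cannot separate it from genotype.

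The oviduct list was the most uneven between tumors of the remaining ones. Oviduct and secretory epithelium markers (8 genes, 0 past the limits in limma, 0 with an unadjusted p under 0.05, 0 apart) were positive in 6 of 8, with a median of 0.77. They summed to 1425, 8218 and 16577 in WT tumors and to 41123, 60008 and 1260 in knockout tumors. *Ovgp1*, the oviduct glycoprotein and the most abundant of them, was at 184, 6552 and 9244 in WT tumors and at 37108, 55944 and 91.0 in knockout tumors. *Agr2* was listed at 0 in knockout tumor 3, and *Agr3* in WT tumor 1 and knockout tumor 3. Pancreatic acinar markers (11 of 12 tested, 0 past the limits, 2 with an unadjusted p under 0.05, 3 apart and higher, median 0.69) summed to 527, 677 and 538 against 572, 1038 and 617, with *Cela1* the most abundant. *Bhlha15*, an acinar marker that plasma cells also express, had a log2 fold change of 2.53 (SE 0.52, adjusted p = 0.347 in limma), at 21.8, 25.0 and 40.5 against 192, 107 and 229. Gut epithelium markers (6 of 10 tested, 0 past the limits, 1 with an unadjusted p under 0.05 and lower, median -1.03) summed to 833, 323 and 912 against 497, 234 and 263, with *Cdhr5* the most abundant. The defining gut genes *Cdx1* and *Cdx2* were not among the 20076 genes with values, which the authors had filtered for low expression. Lymph node and spleen stroma markers (9 of 10 tested, 0 past the limits, 3 with an unadjusted p under 0.05, 3 apart and higher, median 0.88) summed to 6114, 4953 and 5691 against 5733, 5728 and 4412, with *Cr1l* the most abundant. The part of these cell types in the values of the plasma cell genes was not tested. Only the adipocyte markers, the general leukocyte genes and, of the oviduct list, *Ovgp1* and *Foxj1* alone were entered as covariates.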

How the data were processed

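RNA from 6 tumors was sequenced, and the authors quantified transcripts with kallisto 0.46.2 (GRCm38, per the labels), summed them to genes with biomaRt, removed genes with low expression and divided by DESeq2 size factors. The deposited values, labelled TPM, are read here as normalized counts (unit: signal), since TPM would sum to the same total in every tumor and these do not, so no count model was fitted. Each column was matched to 1 tumor by its genotype and replicate number.

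The log2 of each value plus a pseudocount of 1 was fitted with limma 3.58.1 in R 4.3.3 (trend, 6 tumors, no covariate, two-sided, Benjamini-Hochberg over 19667 genes with at least 1 in at least 3 tumors), and fold changes of low genes are understated on this scale. Genes were called at an adjusted p of 0.05 with a log2 fold change beyond 1 in either direction. The main limma fit was tested on simulated data. Python 3.11.15 made tables and exact permutation tests, which that simulation did not cover. Positions come from GENCODE M21 and promoters from RefSeq GRCm38.p6, matched by symbol. Strand handling in the quantification is not given in the sources used here.

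The members and gene lists were chosen with earlier results of these data known. Named genes are the 10 genes, *Tgm2*, *Jchain*, *Igha*, *Ighm*, *Igkc*, of each pathway list the 2 most abundant and the 2 with the smallest p, of each marker list the most abundant and defining genes, and the 5 genes most like the mean of the 10. *Derl2*, *Ighg2b*, *Ighg3*, *Ptprc*, *Krt8*, *Krt19*, *Epcam*, *Cdh1*, *Lep*, *Plin1*, *Cd52*, *Stt3b*, *Cd3g*, *Lck*, *Cd247*, *Foxj1*, *Agr2*, *Agr3*, *Bhlha15* and the genes given for the ERSE alone were named after their values were seen. Alternatives changed the pseudocount, filter, scaling, variance trend, tumor weights, replicate block and thresholds, added covariates and left out each tumor in turn.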

Additional observations from a re-analysis of the deposited data

How the results depend on the processing

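Of 20 genes higher and 0 lower, the limits left 5 higher with the replicate number as a block, 4 without the variance trend and 0 with the white adipocyte covariate. They left 14 higher with a pseudocount of 10, 17 higher and 1 lower with the oviduct covariate, and 17 higher with the leukocyte covariate. At an unadjusted p under 0.05 with the fold limit (limma), the main fit gave 491 higher and 305 lower. That threshold gave 534 and 463 without the variance trend, and 907 and 867 with the adipocyte covariate. Leaving out 1 tumor gave 2 to 14 higher and 0 to 1 lower, with 2 higher without WT tumor 2. Of the 10 plasma cell genes, 2 were past the limits, against 1 with a pseudocount of 10, the replicate block, the oviduct covariate or the leukocyte covariate. The count was 0 without the variance trend or with the adipocyte covariate, where 5 and 4 were higher at the unadjusted threshold with the fold limit. In the main fit 5 were higher at that threshold. With 1 tumor left out, 0 to 2 were past the limits. *Mzb1* lost its call without the variance trend (adjusted p = 0.063 in limma), with the adipocyte covariate and without WT tumor 2, and *Pou2af1* in 11 of 19 alternatives. The cause was not tested.

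The median log2 fold change of the 10 genes was 1.12 with a pseudocount of 10 and 1.37 to 1.73 with 1 tumor left out. *Sdc1* ranged from -0.42 to 0.17 with 1 tumor left out, turning positive without WT tumor 1, and *Fkbp11* to -0.43 with the adipocyte covariate. In all 19 alternatives *Irf4* (2.14 to 4.10), *Derl3* (2.53 to 3.98), *Tnfrsf17* (1.29 to 2.56), *Creld2* (0.48 to 1.23), *Prdm1* (0.47 to 1.05) and *Xbp1* (0.07 to 0.70) remained positive and short of the limits. Under the replicate block *Mzb1* had an adjusted p of 0.0438 and *Pou2af1* of 0.18 (limma), and the calls of *Ighg2c* (0.127), *Igkc* (0.0525), *Cd79a* (0.341) and *Lep* (0.470) were lost, while the log2 fold changes stayed as without the block (4.27 for *Mzb1*, 3.76 for *Pou2af1*). The replicate numbers share only a number: same-numbered tumors correlated at -0.20, 0.28 and -0.31 in their deviations from the group means, and only the tumors numbered 2 correlated best with each other. The oviduct covariate, the mean log2 value of *Ovgp1* and *Foxj1* only, and the leukocyte covariate were chosen after seeing the data. *Tnfrsf17* was the scarcest of the 10, and its log2 fold change went from 2.24 to 1.29 with a pseudocount of 10.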
